A study of Mus musculus with 4 samples.

Results

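Gastrokines, trefoil factors and their companions at the stomach surface were followed in endometriotic lesions of mice, in which tissue like the lining of the uterus grows elsewhere in the body. The set held 10 genes, Gkn1, Gkn2, Gkn3, Tff1, Tff2, Muc5ac, Anxa10, Ctse, Cldn18 and Agr2, of 18193 genes with a probe set of a single symbol, and every one of their 16 probe sets was taken. They were chosen with their values on these arrays known, among them the difference between diets and the ratio of the casein diet arrays, so those values are given as a description and without a test. RNA was measured on 4 Affymetrix 3′ expression arrays, 2 from lesions of mice fed a high-fat diet and 2 from lesions of mice fed a casein diet, the control. Values are linear probe set intensities unless called log2, pairs are in the order replicate 1, replicate 2, and the casein arrays come before the high-fat arrays. The labels do not state the strain or age of the mice or how many animals or lesions an array represents, so the spread within a diet may be technical as well as biological.

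Surface mucous cells line the stomach and its pits and secrete a mucus gel that shields the wall from acid. Gastrokines and trefoil factors are small proteins secreted with that mucus, the first with a BRICHOS domain and the second with the compact, disulfide-bonded trefoil fold, and Muc5ac is the gel-forming mucin of these cells. Agr2 is a disulfide isomerase of the endoplasmic reticulum that mucin-making cells need, Ctse is the aspartic protease cathepsin E, Anxa10 is an annexin of the gastric epithelium, and Cldn18 is a tight junction claudin with a stomach and a lung form.

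By their brightest probe sets, all 10 genes had their highest value in casein diet replicate 1, an intermediate value in casein diet replicate 2 and lower values in both high-fat diet arrays. The high-fat diet lay below the casein diet by a wide margin, with log2 differences from -8.29 to -4.19 and a median log2 difference (high-fat minus casein) of -5.56 over the 10 genes, against -0.01 over the 12797 genes tested. Both casein arrays lay above both high-fat arrays for 10 of 10 genes, and for 19.3% of all genes tested. Casein diet replicate 1 was at least 1 log2 above each of the other arrays for 10 of 10, against 2.19% of all genes, and casein diet replicate 2 exceeded both high-fat arrays by at least 1 log2 for 10 of 10, against 0.492%. These counts restate what the choice of genes used.

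In limma's test across all genes with Benjamini-Hochberg adjustment, 0.0% of genes passed at an adjusted p under 0.05 (0 of 12797, smallest adjusted p = 0.823), and 4.97% had an unadjusted p under 0.05 (636 genes). Without casein diet replicate 2, which leaves a lone casein array, the median log2 difference of the 10 genes was -6.93. With replicate 1 of that diet left out instead, the median log2 difference of the 10 genes was -3.70. All 10 genes reached the filter on low values, a mean intensity of 33.9, and all 10 reached it in casein diet replicate 2 alone. By the mean of the high-fat arrays alone, only 4 of the 10 would have reached it (Gkn3, Tff1, Tff2 and Ctse), so the other 6 were tested because of their values on the casein diet. The same filter was used for the marker lists below. Some list genes, such as Krt20, Foxa1, Gast and Vil1, were likewise under it in both high-fat arrays. No call of presence or absence was used here, so whether the low high-fat values lay above background was not tested, and the log2 differences are differences of the listed intensities. As a guide to how low the high-fat values were, the brightest probe sets of the 10 genes ranked between the 14.3rd and the 71.2nd percentile of all 45101 probe sets in high-fat diet replicate 1, and between the 13.9th and the 73.0th in replicate 2.

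The arrays were alike in overall level, with median intensities of 55.1 to 56.5, and each carried the genes of a uterine lesion. The estrogen receptor gene Esr1 read 3799.7 and 3775 in the casein arrays and 3319 and 4046 in the high-fat arrays, and the progesterone receptor gene Pgr 2761 and 2600.2 against 2032 and 2068. The uterine patterning genes Hoxa10 and Hoxa11, named after their values were seen, were lowest in casein diet replicate 1. Hoxa10 had 647 there, against 1547 in the other casein array and 1886 and 1521 with the high-fat diet, and Hoxa11 had 166, against 363, 405 and 427. The list of 18 endometrial and Müllerian markers was also lower in casein diet replicate 1 than in replicate 2 by its median. The median log2 ratio of replicate 1 to replicate 2 was -0.41, against -0.01 over all genes tested. The list did not share the difference from the high-fat arrays. Against casein diet replicate 1 alone, 8 were lower and 10 higher on the high-fat diet, with a median log2 difference of 0.03. Their summed level was 23268 and 36271 in the casein arrays and 22017 and 33006 in the high-fat arrays. Fewer cells of a type and less RNA per cell cannot be told apart in such bulk samples.

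**Figure D1:**
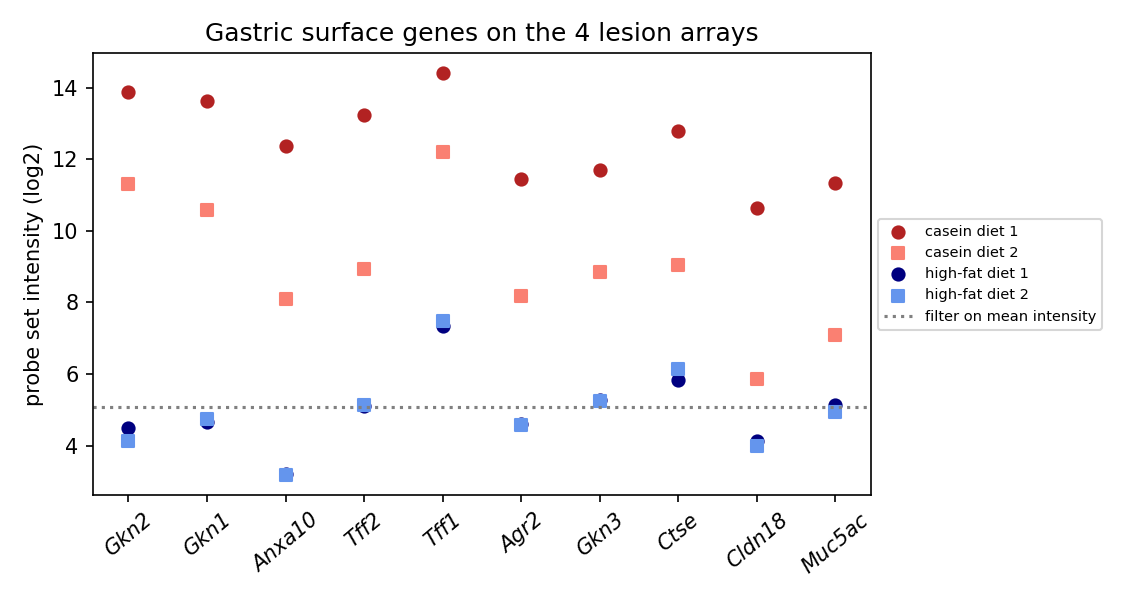
Probe set intensity (log2, y axis) of the 10 gastric surface genes (brightest probe set each, ordered by difference between diets) on each of the 4 arrays, 1 point per array, with the filter on mean intensity (33.9) as a dotted line. Casein diet replicate 1 is highest and casein diet replicate 2 is second for each of the 10 genes, and the high-fat arrays lie close together.

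The gastrokine genes are neighbours on chromosome 6, and Gkn2 and Gkn1 had the largest differences of the set. RefSeq start regions (250 bases before to 50 after the annotated start, written in the direction of the gene) were at hand for 6 of the 10 genes, with 2 for Cldn18. Those of the 3 gastrokines are shown because the genes are adjacent, and that of Anxa10 because its difference was the third largest. The windows of Cldn18 and Agr2 are not shown, although the difference of Agr2 (-5.23) was larger in size than that of Gkn3 (-5.01). Capitals mark matches, on either strand, to TATAAA, the letters of a TATA box, to AGATAA, a motif of the GATA type, and to TGTTTAC or, as another motif of the forkhead type, TGTTTGC.
Gkn1 (GRCm38.p6, chr6:87350866-87351165, - strand): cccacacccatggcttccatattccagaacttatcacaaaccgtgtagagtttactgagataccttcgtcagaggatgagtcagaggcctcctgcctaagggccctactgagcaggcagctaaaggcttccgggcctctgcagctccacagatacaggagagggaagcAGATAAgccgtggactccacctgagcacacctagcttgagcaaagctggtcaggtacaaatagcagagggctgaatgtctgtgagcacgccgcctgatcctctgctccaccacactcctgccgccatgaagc
Gkn2 (GRCm38.p6, chr6:87373115-87373414, + strand): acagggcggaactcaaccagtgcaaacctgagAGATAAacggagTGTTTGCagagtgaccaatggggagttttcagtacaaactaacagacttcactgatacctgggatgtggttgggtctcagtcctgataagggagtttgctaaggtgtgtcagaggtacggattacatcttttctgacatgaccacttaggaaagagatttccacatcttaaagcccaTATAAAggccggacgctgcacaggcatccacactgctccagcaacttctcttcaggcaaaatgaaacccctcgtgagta
Gkn3 (GRCm38.p6, chr6:87388886-87389185, - strand): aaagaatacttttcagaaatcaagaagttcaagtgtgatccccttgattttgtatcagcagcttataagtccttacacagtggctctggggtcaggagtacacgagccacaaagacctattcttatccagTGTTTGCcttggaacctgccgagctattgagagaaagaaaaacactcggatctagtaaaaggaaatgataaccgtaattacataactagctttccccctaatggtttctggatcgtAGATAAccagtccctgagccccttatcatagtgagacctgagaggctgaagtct
Anxa10 (GRCm38.p6, chr8:62123144-62123443, - strand): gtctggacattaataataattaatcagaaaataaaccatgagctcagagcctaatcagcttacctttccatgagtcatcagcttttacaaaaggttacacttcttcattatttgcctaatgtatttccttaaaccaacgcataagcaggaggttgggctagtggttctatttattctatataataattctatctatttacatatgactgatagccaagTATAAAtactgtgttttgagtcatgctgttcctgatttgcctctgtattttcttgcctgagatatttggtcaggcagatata

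AGATAA was found in all 3 gastrokine windows and in 4 of the 7 windows of the set (one of the Cldn18 windows is the fourth), against 11.2% of 32851 mouse start regions of that length. TGTTTGC was found in 4 of 7 windows (Gkn2, Gkn3 and both of Cldn18) against 5.07%, TATAAA in 2 of 7 (Gkn2 and Anxa10) against 13.6%, and TGTTTAC in 0 of 7 against 3.65%. The Agr2 window held no match to any of these motifs. In the Gkn2 window TATAAA began 29 bases before the annotated start, and in the Anxa10 window 32 bases before it. The matches are a description of the sequence, and no binding was measured.

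Gkn2 had the largest difference of the set. It read 14933 and 2548 in the casein arrays and 22.3 and 17.4 in the high-fat arrays, a log2 difference of -8.29 (SE 0.94, n = 2 arrays per diet). Both high-fat values lay below the filter, far under either casein array. Gkn1, the other gastrokine expressed along the surface, had 12601 and 1544 against 25.1 and 26.6 by its brighter probe set (log2 difference -7.42, SE 1.10). A second Gkn1 probe set read 14350.0 and 1091 against 7.96 and 8.62, a log2 difference of -8.90, so the size depends on the probe set, while casein diet replicate 1 was highest and casein diet replicate 2 second by both. Gkn3, the gastrokine gene nearest to Gkn2, had 3336 and 462 against 39.0 and 38.2 (log2 difference -5.01, SE 1.04), and 2670.0 and 237.9 against 13.3 and 18.3 by its second probe set (-5.68). The groups did not overlap for any gastrokine probe set. The brighter probe sets of Gkn1 and Gkn3, and the dimmer one of Agr2, carry the maker's suffix for probes that may also bind other sequences, and the second ones of the gastrokines do not.

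The nearest protein-coding genes outside the cluster did not share the pattern of the arrays. Antxr1, an anthrax toxin receptor gene on one side, read 1044 and 1369 in the casein arrays and 1967 and 1423 in the high-fat arrays. Bmp10, on the other side, stayed between 23.7 and 27.0 on all 4 arrays. Over the 14 protein-coding genes that flank the 10 genes in RefSeq's gene order, picked by position and not by value, log2 differences ran from -0.84 to 0.49 with a median of 0.06, and 0 of the 6 that were tested passed. Tspan13, next to Agr2, gave the lowest of these (-0.84, SE 0.25, adjusted p = 0.863 in limma with Benjamini-Hochberg adjustment). It read 2498 and 1619 against 1184 and 1061, so casein diet replicate 1 was highest and replicate 2 second, as in the set. The flanking genes that were not tested lay below the filter, so the median rests in large part on dim genes.

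The trefoil factor genes Tff1 and Tff2 are adjacent among the protein-coding genes of a small cluster on chromosome 17. Tff1, made by pit cells, had 21720.5 and 4690 in the casein arrays and 162 and 179 in the high-fat arrays, a log2 difference of -5.89 (SE 0.81). Its high-fat values lay between the 71.2nd and 73.0th percentile of probe sets. Tff2, the trefoil factor of mucous neck and antral gland cells, had 9739 and 489 against 34.7 and 35.1 (log2 difference -5.97, SE 1.57). The means of these neighbours differed by a similar amount between diets, but casein diet replicate 1 was 4.63 times replicate 2 for Tff1 and 19.9 times for Tff2. The Tff1 value in casein diet replicate 1 was the highest of all probe sets on that array, and whether it was saturated was not tested, so its ratio and the contrast with Tff2 may not measure the full difference. Tff3, the intestinal trefoil factor gene beside Tff2, had only 24.1 and 16.7 against 18.4 and 15.4 and did not reach the filter.

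Among the mucus genes, Muc5ac read 2585 and 137 in the casein arrays and 34.9 and 30.5 in the high-fat arrays, a log2 difference of -4.19 (SE 1.54), the smallest of the set. The flanking mucin genes Muc2, the intestinal gel-forming mucin, and Muc5b, that of the airways, lay between 18.7 and 22.1 and between 32.7 and 45.6 on the 4 arrays. Agr2 had 2782 and 291.5 against 24.2 and 23.9 (log2 difference -5.23, SE 1.18), and its second, dimmer probe set 263 and 22.7 against 8.45 and 8.35 (-3.20). Agr3, its neighbour and closest relative, stayed between 6.79 and 8.35 on all 4 arrays. For both mucus genes the casein arrays lay above the high-fat arrays without overlap.

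Anxa10 and Cldn18 are genes of the epithelial cells themselves, not of their mucus. Anxa10 read 5332 and 271 in the casein arrays and 9.17 and 8.996 in the high-fat arrays, a log2 difference of -7.05 (SE 1.56). Its second probe set was much dimmer, at 370 and 14.97 against 6.28 and 7.74 (-3.42). The claudin gene Cldn18 had 1586 and 58.0 against 17.4 and 15.8 (log2 difference -4.20, SE 1.73), and 1692 and 41.2 against 10.6 and 7.94 by its second probe set (-4.85). Neither probe set of Cldn18 is annotated here to its stomach or lung form.

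The pair of probe sets for Ctse gave different pictures. The brighter one read 7057 and 531 in the casein arrays and 57.2 and 69.9 in the high-fat arrays, a log2 difference of -4.94 (SE 1.36). The other read 120 and 201 against 96.8 and 243, a log2 difference of -0.02, with the highest value in high-fat diet replicate 2 and groups that overlapped. It was the only one of the 16 probe sets whose groups overlapped, and its name carries the suffix by which the maker marks probes that can match more than 1 transcript. Averaging the pair brought the Ctse difference to -2.48 on the log2 scale, so the value for Ctse rests on the brighter probe set. Cathepsin E is also made by antigen-presenting cells: of their 8 tested markers 8 had lower means on the high-fat diet, by a median of 0.49 log2 (0.24 without casein diet replicate 1), and 0 passed. The invariant chain gene Cd74 had 2695 and 1522 against 1423 and 1145. The summed level of the list was 27014 and 20147 in the casein arrays and 19361 and 15499 in the high-fat arrays, and its part in the Ctse values was not tested.

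**Figure D2:**
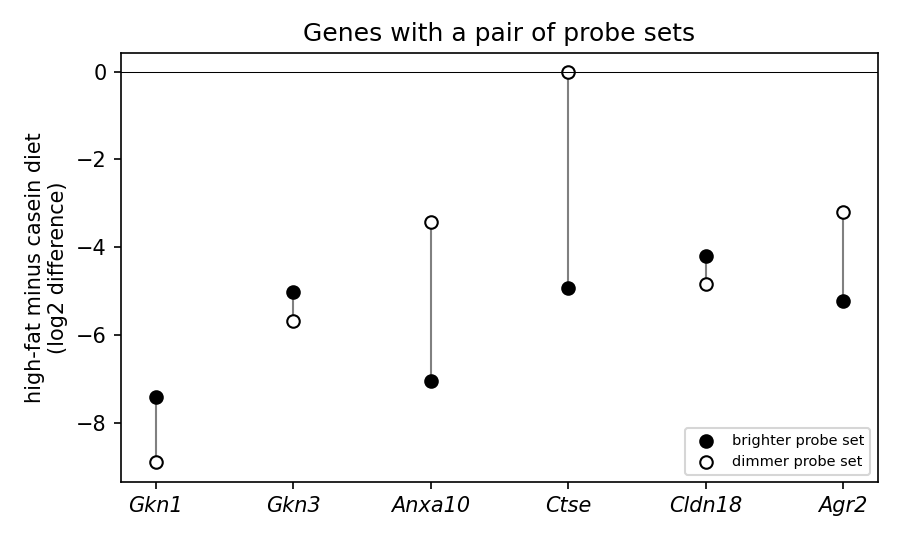
Log2 difference, high-fat minus casein diet (y axis), of the 6 genes with a pair of probe sets, with the brighter probe set filled and the dimmer one open, each a difference of means over 2 arrays per diet. Both probe sets lie well below 0 for Gkn1, Gkn3, Anxa10, Cldn18 and Agr2, whereas the dimmer Ctse probe set lies at -0.02.

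The casein diet arrays were far apart for all of these genes. Casein diet replicate 1 was between 4.63 times (Tff1) and 27.3 times (Cldn18) replicate 2, with a median of 11.4 times. Over all genes tested the middle 95% of this ratio ran from 0.558 to 2.10, and 82 of 12787 other genes tested had a ratio at least as high as that of Tff1. From the smallest to the largest, the ratios were 4.63 for Tff1 (with the possibly saturated value above), 5.86 for Gkn2, 7.22 for Gkn3, 8.16 for Gkn1 and 9.54 for Agr2. They were 13.3 for Ctse, 18.9 for Muc5ac, 19.7 for Anxa10, 19.9 for Tff2 and 27.3 for Cldn18. Within the high-fat diet the ratio of replicate 1 to replicate 2 lay between 0.818 (Ctse) and 1.28 (Gkn2), inside the middle 95% of all genes, 0.538 to 1.52.

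**Figure D3:**
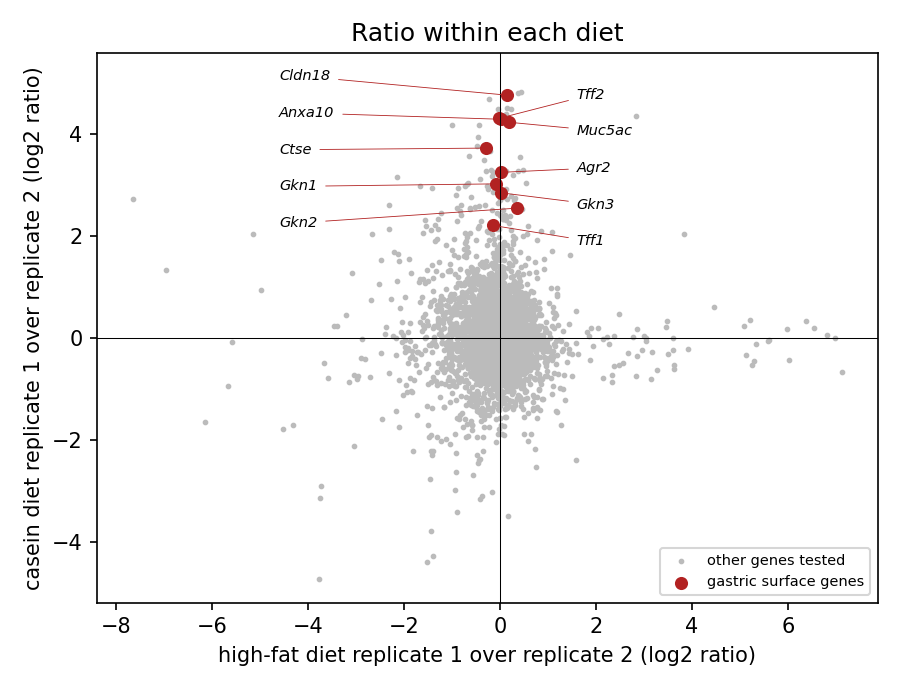
Log2 ratio of casein diet replicate 1 to replicate 2 (y axis) against that of high-fat diet replicate 1 to replicate 2 (x axis), 1 point per gene tested, with the 10 gastric surface genes in red. These genes lie between 2.21 and 4.77 on the y axis and between -0.29 and 0.36 on the x axis.

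The SE of the 10 differences ranged from 0.81 to 1.73, and neighbours in the order of differences (Gkn2, Gkn1, Anxa10, Tff2, Tff1, Agr2, Gkn3, Ctse, Cldn18, Muc5ac) were closer together than their SE. Against casein diet replicate 1 alone the log2 differences ran from -9.57 to -6.31, and against casein diet replicate 2 alone from -7.02 to -1.81. The weakest of the latter, for Cldn18 (-1.81) and Muc5ac (-2.07), were smaller in size than the difference between the casein arrays themselves, 4.77 and 4.24. The same held for Ctse (-3.07 against 3.73) and Tff2 (-3.81 against 4.32), and not for the other genes of the set.

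Other genes of gastric surface and pit cells had lower means on the high-fat diet too, with smaller differences. In a list of 10 such genes, 8 were tested, 8 had lower means (51.4% of all genes did), and 0 passed limma's test with an adjusted p under 0.05. Among them Krt20 and Capn9 (329 and 33.7 against 22.4 and 20.5) lay below the filter in both high-fat arrays. They were tested because of their casein values, so their direction came with the filter. Their median log2 difference was -1.76, or -1.01 with casein diet replicate 1 left out and -2.74 with casein diet replicate 2 left out. Krt20, a keratin of differentiated surface cells, had 917 and 45.0 against 19.4 and 17.5 (log2 difference -3.46, SE 1.58), and Psca, a small membrane-anchored antigen, 968 and 53.0 against 35.6 and 48.4 (-2.45, SE 1.53). Both were highest in casein diet replicate 1. In casein diet replicate 2 Krt20 was 2.32 times the higher high-fat array and Psca 1.10 times. The tetraspanin gene Tspan8 and the mucin glycosylation gene Gcnt3 had 2772 and 1299.8 against 363 and 1169, and 801 and 354 against 101 and 266.

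Markers of the stomach's acid- and enzyme-secreting gland cells did not share one pattern. Of 7 chief cell markers on the array 2 were tested, both with higher means on the high-fat diet (median log2 difference 0.91, or 0.09 without high-fat diet replicate 2), and 0 passed. The pepsinogen gene Pga5 had 24.6 and 54.9 in the casein arrays and 33.6 and 79.9 in the high-fat arrays, and Bhlha15, a transcription factor of secretory cells, 43.6 and 35.1 against 48.4 and 198. Among those that did not reach the filter, the pepsinogen gene Pgc had 72.4 in casein diet replicate 1 and 17.8 to 18.9 elsewhere, and Cblif, for gastric intrinsic factor, 201 against 15.2 to 23.5. Lipf, for gastric lipase, stayed between 5.55 and 6.10. Of 12 parietal cell markers 8 were tested, with 6 lower means and 0 passing (median -0.13, 0.01 if casein diet replicate 1 is left out, and -0.28 if replicate 2 of that diet is). Kcne2, a potassium channel subunit gene below the filter, had 143 in high-fat diet replicate 2 and 5.52 to 10.3 elsewhere. The proton pump genes Atp4a and Atp4b, which define that cell type and were named after their values were seen, lay between 18.1 and 27.0 and between 41.5 and 46.6 on the 4 arrays. Car2, a carbonic anhydrase that many other cells make too, had 5041 and 2182 against 941 and 943 (log2 difference -1.82, SE 0.45, limma adjusted p = 0.863).

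Several endocrine and gland mucus genes of the stomach were also highest in casein diet replicate 1. The hormone gene Gast had 273 and 34.5 in the casein arrays against 17.8 and 21.4 (log2 difference -2.31, SE 1.09), and Ghrl, for ghrelin, 159 and 20.8 against 16.4 and 17.7. The granin gene Chgb had 196 and 36.7 against 19.1 and 18.8. Over the 4 tested endocrine markers 3 had lower means and 0 passed, with Hdc, the histamine-making enzyme that mast cells also express, in the opposite direction (486 and 2249 against 1372 and 1758). The 3 were Gast, Chgb and Chga (106 and 34.6 against 29.2 and 30.7), all below the filter in both high-fat arrays. They were tested because of their casein values, so their direction came with the filter. Hdc was above the filter on all 4 arrays. Of the 3 tested gland mucus genes, Dmbt1 had 1163 and 56.8 against 143 and 20.0, whereas Aqp5 and Wfdc2 were highest in high-fat diet replicate 2 and casein diet replicate 2. For this list 0 passed.

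Transcription factors of the foregut and stomach had lower means on the high-fat diet for 8 of 8 tested, with a median log2 difference of -1.11 and 0 passing. Without casein diet replicate 1 these were 6 of 8 and -0.19. Foxa1, a forkhead factor of endodermal epithelia, had 627 and 33.2 against 13.6 and 11.8 (log2 difference -3.51, SE 1.54), and Klf4 2731 and 607 against 479 and 524. Foxa1 lay below the filter in both high-fat arrays, so its direction came with the filter. Gata6, a GATA factor of endoderm and mesoderm, had 293 and 187 against 114 and 93.9. Genes of the mucin secretory pathway had 11 of 15 lower means, a median of -0.16 and 0 passing. Leaving out high-fat diet replicate 1 gave 8 of 15 and -0.03, and leaving out the other high-fat array 14 of 15 and -0.40. With casein diet replicate 2 left out the median was -0.48. Xbp1, which drives secretory capacity in many cells, had 3642 and 3519 against 3831 and 5137.

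**Figure D4:**
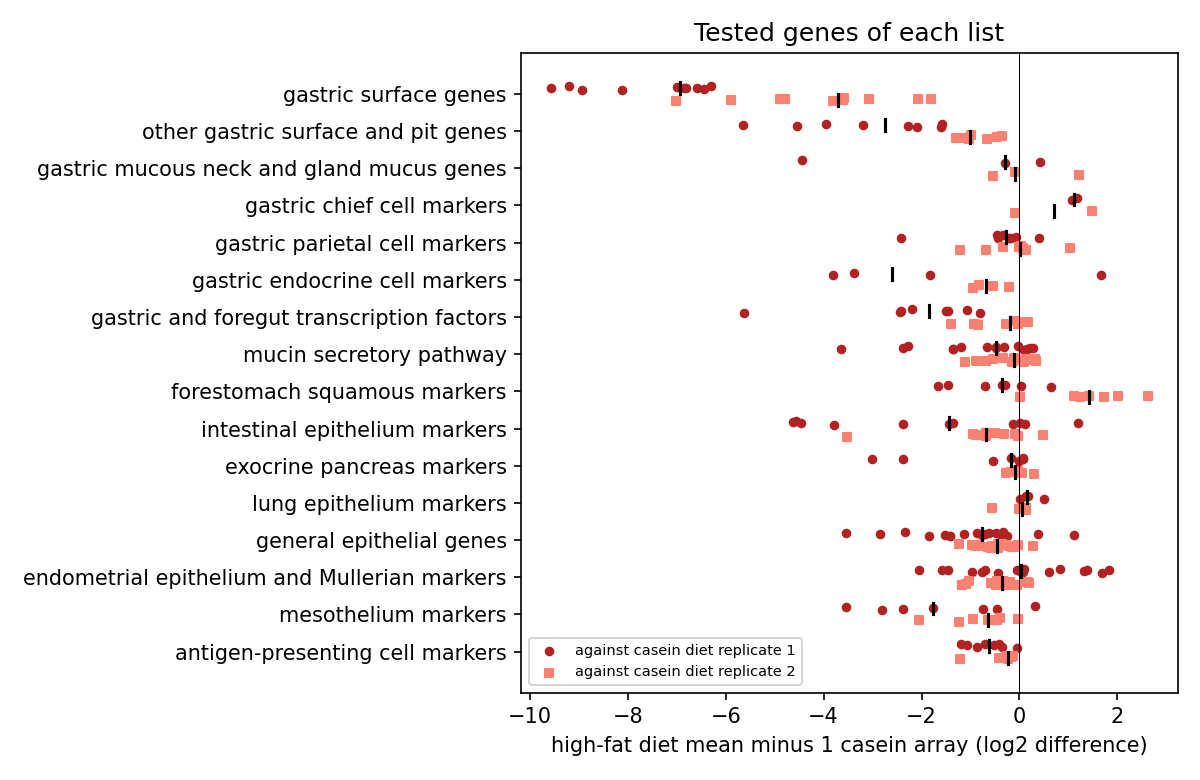
Log2 difference of the high-fat diet mean from casein diet replicate 1 (circles) and from casein diet replicate 2 (squares) on the x axis, 1 point per tested gene, for the 10 gastric surface genes and each list of markers, with the median as a black bar. The medians of the gastric surface genes are -6.93 and -3.70, and those of the other surface and pit genes -2.74 and -1.01.

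Markers of other tissues that share some of these genes were set beside them. Of 11 tested intestinal markers 10 had lower means and 0 passed, with a median log2 difference of -1.17. Leaving out casein diet replicate 1 gave a median of -0.67. Leaving out a high-fat array gave -0.50 (replicate 1) or -2.29 (replicate 2). Their summed level was 23726 and 21353 in the casein arrays and 19008 and 18661 in the high-fat arrays, most of it from the lysozyme gene Lyz1, which myeloid cells can contribute. The galectin gene Lgals4 had 1908 and 139 against 73.5 and 103. Among others, named after their values were seen, the fatty acid-binding protein gene Fabp2 had 792 and 28.5 against 7.37 and 7.14, a log2 difference of -4.37, larger in size than that of Muc5ac, with a mean just under the filter. The villin gene Vil1 had 392 and 30.7 against 14.8 and 17.1, and Spink4 544 and 28.9 against 25.5 and 21.0. Both lay below the filter in both high-fat arrays, as did Apoa1 (73.7 and 29.2 against 22.7 and 32.9). Vil1, Spink4 and Apoa1 were tested because of their casein values, so their direction came with the filter. Cdx1 and Cdx2, intestinal transcription factor genes, stayed between 8.85 and 9.93 and between 27.5 and 30.2. Forestomach squamous markers went both ways (3 of 7 lower, 0 passed), and all 7 were higher on the high-fat diet than in casein diet replicate 2, the array with the lowest summed level (538, against 2051, 1699 and 1373). Against casein diet replicate 1 alone, 5 of the 7 were lower. Exocrine pancreas markers had 6 of 7 lower means and a median of -0.06 (3 of 7 if high-fat diet replicate 1 is left out), with Cela1, an elastase gene, at 1443 and 215.4 against 199 and 160, and 0 passed. Lung markers had 1 of 4 lower and a median of 0.07 (3 of 4 and -0.49 without high-fat diet replicate 2), and 0 passed.

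General epithelial genes had lower means on the high-fat diet for 18 of 19, with a median log2 difference of -0.67 and 0 passing. Both values moved with the high-fat arrays: leaving out replicate 1 gave 11 of 19 and -0.04, and leaving out replicate 2 gave 19 of 19 and -1.19. The keratin gene Krt8 had 10009 and 2729 against 1079.6 and 1796, and Krt19 5236 and 1053 against 261 and 772. The summed level of the list was 33498 and 18059 in the casein arrays and 8747 and 17753 in the high-fat arrays. Casein diet replicate 2 and high-fat diet replicate 2 were close in this sum, which is weighted to the brightest genes, but differed in Krt8 and Krt19. The part of epithelial content in the values of the 10 genes was not tested. Markers of mesothelium, the cell layer that covers abdominal organs, had 6 of 7 lower means (median -1.11, or -0.65 and -1.77 if the first or second casein array is left out, and -0.74 if the first high-fat array is), with Upk3b at 140 and 82.7 against 17.0 and 23.5, and 0 passed. Upk3b lay below the filter in both high-fat arrays and was tested because of its casein values, so its direction came with the filter. Markers of endometrial epithelium and the Müllerian tract had 13 of 18 lower means and a median of -0.22, but 8 of 18 and 0.03 without casein diet replicate 2, and 0 passed. Leaving out casein diet replicate 1 gave that list a median of -0.36, and leaving out the second high-fat array -0.41. The part of these other tissues in the values of the 10 genes was not tested.

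The genes most like the set were sought as those with a correlation of at least 0.99 with its mean profile over the 4 arrays and a range of at least 3 log2. The correlation alone was met by 100 of the other genes tested. Only 2 met both, Sptssb, a subunit gene of the enzyme that starts sphingolipid synthesis (r = 0.997), and 2210407C18Rik, an uncharacterised gene (r = 0.995). The cut leaves out genes with another spacing of the arrays. Foxa1 and Krt20, also highest in casein diet replicate 1 and second in replicate 2, did not reach the correlation. Sptssb had 2787 and 124 in the casein arrays and 9.30 and 7.93 in the high-fat arrays, and 2210407C18Rik had 2789 and 132 against 12.3 and 11.3. With 4 arrays, a correlation shows only that the order and spacing of the arrays were alike. Of 12787 other genes tested, 3 had a log2 difference at or below that of Muc5ac (Fabp2 was not tested): these same 2 and Lypd8 (2038 and 71.6 against 13.4 and 9.93), which was picked out after its values were seen. The next beyond Muc5ac were Lgals2, a galectin gene (-4.03), and the gasdermin gene Gsdma2 (-3.90), picked in the same way.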

How the data were processed

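Total RNA from endometriotic lesions was labelled by in vitro transcription and hybridised to 4 arrays, per the labels' protocols. The deposited values are linear probe set intensities, which the authors had normalised across the arrays. GCOS and RMA were used, per the submitters' processing notes, with no versions, and how linear values followed from RMA is not given in the sources used here. Normalising between arrays hides a shift shared by most genes, and the low end of the scale holds background, so differences of dim genes are compressed.

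The log2 of each value was taken with no pseudocount. The platform's annotation named the probe sets (34945 with 1 symbol, 932 with several, 9160 with none, 64 controls), and the gene identifiers of 34741 matched RefSeq (GRCm38.p6). Coordinates are printed only for the RefSeq start regions. Per gene the probe set with the highest mean log2 value was used. The test took 12797 genes whose mean reached the 40th percentile of probe sets (intensity 33.9, from log2 means) and was run with limma 3.58.1 in R 4.3.3 (lmFit, eBayes, two-sided, Benjamini-Hochberg over all genes), which was tested on simulated data. SE is limma's moderated standard error. Groups came from sample titles. With 2 arrays against 2 the smallest exact permutation p is 0.333, and the number of arrays limits the precision. Members and lists were chosen with earlier results of these data known. The rule for naming list genes was the 4 with the highest value on any array. Not all of these are printed, and other genes of the lists (such as Fabp2, Vil1, Spink4, Pgr, Hoxa10, Hoxa11, Lipf, Atp4a, Cdx1 and Cdx2) were named for their role or pattern after their values were seen. Some genes stand in more than 1 list. Alternatives were a replicate block, quantile normalisation, median centring, pseudocounts of 1 and 16, other filters and probe set choices, another prior, a threshold of 0.10 and leaving out each array. No protein sequences were used here. Figures were drawn with matplotlib 3.10.9.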

Additional observations from a re-analysis of the deposited data

How the results depend on the processing

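The direction of all 10 differences and of all 10 casein diet ratios held under each alternative run. The median log2 difference of -5.56 lay between -5.59 and -5.04 under quantile normalisation, median centring, pseudocounts, the mean of all probe sets, the replicate block and leaving out either high-fat array. It was -3.70 without casein diet replicate 1. With the other casein array left out it was -6.93. The median log2 casein ratio of 3.49 lay between 3.38 and 3.50. With the mean of all probe sets the Ctse difference moved from -4.94 to -2.48 and its log2 casein ratio from 3.73 to 1.49. The count of genes passing limma's test was 0 in each alternative except without casein diet replicate 2, where it was 17 (0 to 17 over the arrays left out), 10 of them the gastric set, which was chosen on these values, and list genes passing were 2, Foxa1 and Krt20 (0 to 2). That fit leaves a lone casein array, assumed to vary like the others, and Foxa1 and Krt20 reached the filter only through their casein values. The replicate number as a block gave 0 genes and the same median difference of -5.56. Deviations of same-numbered arrays were not correlated (r = -0.02 across genes), so the numbers were not taken as pairs. By the mean of the high-fat arrays only 4 of the 10 genes reached the filter. Whether the high-fat values lay above background was not tested, and they were not put in order.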
